A study of Rattus norvegicus with 9 samples.

Results

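The comparison described here sets rat primary chondrocytes that had received interleukin-1β (IL-1β) and then shared a transwell with dermal fibroblasts against chondrocytes kept in routine culture without the cytokine. It asks how far the co-cultured cells still differed from control. Genes were chosen by level: of 17588 genes in the table, 11506 had at least 1 FPKM (fragments scaled to transcript length and library total) in at least 3 of the 6 libraries and were tested, and 6082 were not. The rule used the level and not the direction, although 81 of the 11506 stayed under 1 FPKM in every control library and 52 in every co-culture library, so these passed through 1 group alone. Among the genes named below they included Ccl20, Il1a, C3, Mmp9, Nos2, Wfdc21, Rabif and Pvalb for co-culture, and Fam180a and Nfs1 for control. For such genes the rule itself favoured a difference in that direction. At the edge of the rule, the third-highest of the 6 values was 1 for the genes just inside and 0.99 for those just outside.

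The study has 9 libraries in 3 groups of 3, all from wild-type (WT) rat primary chondrocytes: control (no IL-1β), IL-1β alone, and IL-1β with co-culture, in which the fibroblasts lay in the upper chamber and the sequenced chondrocytes in the lower one. No group analysed here received the fibroblasts without IL-1β, so the residual difference holds the effects of the cytokine and of the co-culture together. No source used here gives the dose or time of IL-1β, the length of co-culture or the age of the animals. The labels do not say whether the 3 libraries of a group came from different animals or dishes, so the spread behind the p-values is that of these libraries and may be technical. The IL-1β group adds to the shared estimate of spread, is set beside the other groups as values, and helped to choose the genes outside both groups and those near control. FPKM summed to between 771058 and 782435 in control libraries and between 809839 and 811665 in co-culture libraries. Between 11337 and 11474 genes reached 1 FPKM in each of these 6 libraries, and the absolute depth is unknown. In bulk RNA, fewer cells of a type and less RNA per cell cannot be told apart.

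Chondrocytes build cartilage from type II, IX and XI collagens and from aggrecan, which link protein anchors to hyaluronan. IL-1β signals through NF-κB and stress kinases, which switch on chemokines, prostaglandin enzymes and matrix metalloproteinases and switch off the cartilage genes. In culture, chondrocytes also drift towards a fibroblast-like state with type I collagen and contractile proteins. All 15 chondrocyte markers in the table were above the filter, and in control libraries their FPKM summed to between 2069 and 2159. Type I and III collagen were also abundant, with Col1a1 at 1973 ± 55.7 and Col3a1 at 1312 ± 13.1 FPKM in control (mean ± SD, n = 3 libraries, as throughout). Type II collagen (Col2a1) stood at 1042 ± 32.0 FPKM there.

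Promoters of 5 of the most raised genes are shown first, chosen because each holds letters of the kind that NF-κB or AP-1 is known to bind. Among the other matched promoters of the 12 genes with the largest rises, that of Pla2g2a also held a match and the rest held none. RefSeq promoters (build GRCr8) matched 10 of the 12 genes with the largest rises and 8 of the 12 with the largest falls. The sequences run 5′ to 3′ on the gene's own strand, end where the annotated gene begins or just before its start site, and carry motif matches in capitals. They lie at chr3:36081852-36082030 (minus strand) for Lcn2, chr9:91836909-91837138 (plus strand) for Ccl20, chr14:17596418-17596667 (minus strand) for Cxcl6, chr8:12925031-12925266 (plus strand) for Mmp3 and chr8:12974457-12974706 (plus strand) for Mmp10.
Lcn2: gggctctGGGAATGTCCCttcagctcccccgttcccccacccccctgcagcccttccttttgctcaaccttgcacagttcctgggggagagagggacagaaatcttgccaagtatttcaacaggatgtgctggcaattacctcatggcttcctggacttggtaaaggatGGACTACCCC
Ccl20: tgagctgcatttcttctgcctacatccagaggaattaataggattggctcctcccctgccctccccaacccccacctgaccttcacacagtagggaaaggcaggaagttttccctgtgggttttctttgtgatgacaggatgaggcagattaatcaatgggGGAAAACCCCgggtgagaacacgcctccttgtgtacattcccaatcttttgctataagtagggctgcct
Cxcl6: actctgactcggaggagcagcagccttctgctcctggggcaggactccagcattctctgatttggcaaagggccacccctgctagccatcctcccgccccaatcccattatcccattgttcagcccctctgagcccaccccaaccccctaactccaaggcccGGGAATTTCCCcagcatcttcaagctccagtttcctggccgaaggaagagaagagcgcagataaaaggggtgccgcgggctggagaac
Mmp3: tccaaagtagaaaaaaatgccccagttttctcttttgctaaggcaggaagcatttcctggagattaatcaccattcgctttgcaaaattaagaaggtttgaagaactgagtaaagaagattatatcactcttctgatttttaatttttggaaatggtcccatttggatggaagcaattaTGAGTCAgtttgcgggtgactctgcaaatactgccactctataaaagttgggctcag
Mmp10: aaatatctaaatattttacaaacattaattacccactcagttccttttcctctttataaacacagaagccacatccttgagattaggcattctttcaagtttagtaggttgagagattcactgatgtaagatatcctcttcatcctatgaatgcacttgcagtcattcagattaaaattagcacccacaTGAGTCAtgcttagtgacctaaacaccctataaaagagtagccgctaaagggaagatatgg
In the first 3 the capitals mark a loose κB-like motif on either strand (GGG and TCC with 4 bases of any kind between them), and in Mmp3 and Mmp10 the AP-1 motif TGANTCA. Over the 250 bases before the start, a stricter κB-like motif (GGG and TTTCC with 2 bases of any kind between them), whose matches are all matches of the loose one too, stood in the promoters of Ccl20, Cxcl6 and Pla2g2a. That is 3 of the 10 promoters of the raised genes and 0 of the 8 of the lowered ones, beside 1.40% of the 9172 promoters of tested genes and 1.28% of all 27457 in the table. The loose motif stood in 4 of 10 and 2 of 8, beside 20.5% of the tested genes' promoters and 15.5% of all, and TGANTCA, read on both strands too, in 2 of 10 and 1 of 8 (Fam180a), beside 4.31% and 6.36%. A match is a description of these letters and not a binding site.

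Many genes still differed from control, mostly by small amounts. With limma, 3924 of the 11506 genes (34.1%) passed a Benjamini-Hochberg adjusted p of 0.05, of which 2495 (21.7% of the tested genes) were higher in co-culture and 1429 (12.4%) lower. Such genes are said below to have risen or fallen. The counts of list members given below are to be read beside these shares of all tested genes. Of the 3924, 3120 (79.5%) differed by under 0.5 on the log2(FPKM + 1) scale, on which differences are given with their standard error and which understates the change of low genes. At least 2-fold differences on that scale numbered 162 higher (1.41%) and 77 lower (0.669%). For 9662 genes (84.0%) the whole 95% interval of the difference lay within 0.5 log2 of 0, and 2586 of these had still passed the test. The 6 libraries did not overlap in 5369 genes (46.7%).

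The split between rises and falls depended on the scaling. As deposited, 63.6% of the called genes were higher, against 42.5% with libraries rescaled to a common sum, 44.2% after quantile normalization and 49.0% with median-of-ratios scaling. The median difference over all genes was 0.04 log2 as deposited, and -0.02 with a common sum, so differences of about 0.1 are read below with the scaling beside them. The share called grew with level, from 23.2% of genes whose higher group mean was under 5 FPKM to 51.7% of those at 100 FPKM or more. The median absolute difference did not grow with it, at 0.136 log2 in the lowest class and 0.112 in the highest.

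**Figure D1:**
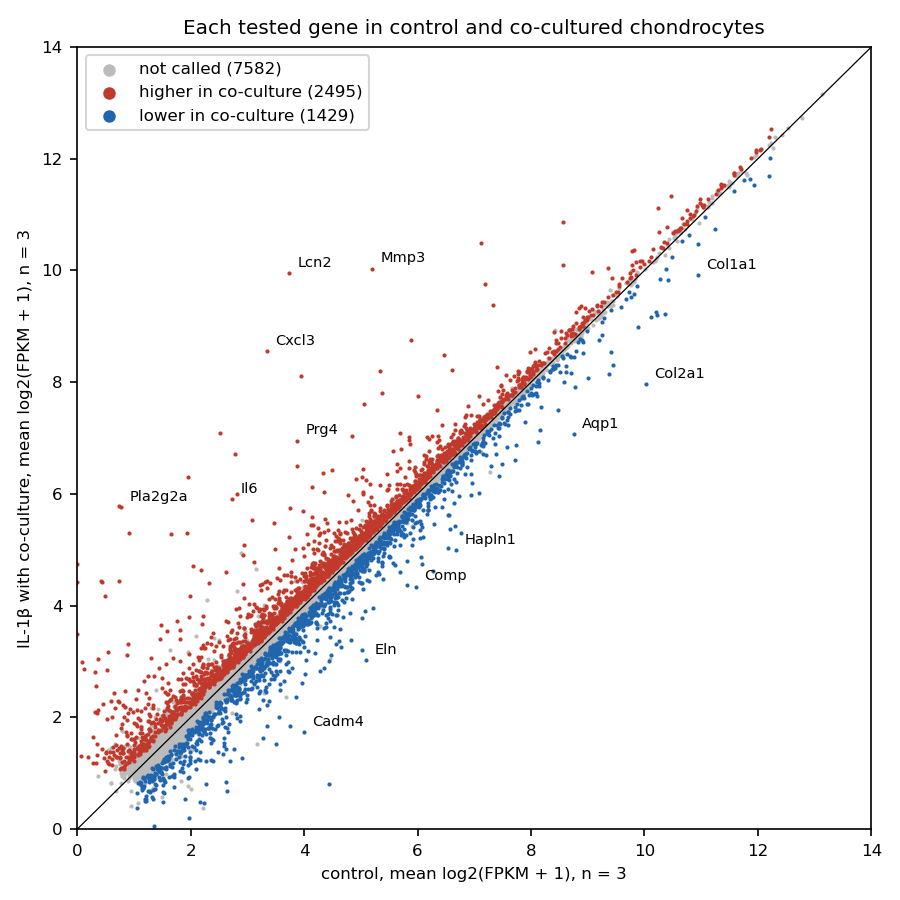
Mean log2(FPKM + 1) of each of the 11506 tested genes in control (x axis) and in IL-1β with co-culture (y axis), n = 3 libraries each. Red points rose (2495), blue points fell (1429), grey points were not called, and the line marks equal levels. The farthest points above the line include inflammatory and protease genes such as Lcn2 and Mmp3. Those below it include the adhesion gene Cadm4 and matrix genes such as Col2a1 and Eln.

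Among the 12 largest rises were the chemokine genes Cxcl3, Ccl20 and Cxcl6 and the matrix protease genes Mmp3, Mmp9 and Mmp10. Lcn2, which encodes an iron-sequestering acute-phase lipocalin, stood at 11.0, 13.9 and 12.2 FPKM in the 3 control libraries and at 1041, 868 and 1072 in the co-culture libraries. All 3 co-culture libraries lay far above control, and the fold of the means was 80.4-fold (6.22 ± 0.088 log2, limma adjusted p = 4.94e-11). The neutrophil chemokine gene Cxcl3 stood at 8.57, 9.67 and 9.24 in control and 333, 327 and 484 in co-culture (41.6-fold, 5.21 ± 0.13 log2, adjusted p = 1.33e-09). The third co-culture library was the highest for Cxcl3, and no library of the groups overlapped. With IL-1β alone Cxcl3 stood at 1843, 1687 and 1691 and Lcn2 at 2819, 2673 and 2631, above the co-culture libraries in both genes.

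Cytokine and chemokine genes had 23 rises and 1 fall among 27 tested (88.9% called, beside 34.1% of all genes), with a median difference of 2.02 log2 beside 0.04 over all genes. Ccl20, which attracts lymphocytes and dendritic cells, rose from 0.73, 0.93 and 0.4 FPKM to 50.4, 46.5 and 66.4. The neutrophil chemokine Cxcl1 rose from 143, 133 and 139.7 to 1407, 1332 and 1579.9, and Cxcl6 from 14.1, 15.1 and 14.2 to 257, 255 and 318. In these chemokines every co-culture library stood several times above every control library. The monocyte chemokine Ccl2 rose 4.93-fold, from 379 ± 4.28 to 1872 ± 153, and Cxcl12, a stromal chemokine, 3.37-fold, from 63.7 ± 1.26 to 214 ± 9.78. The alarm cytokine Il1a rose from 0.673 ± 0.0462 to 20.9 ± 2.17 and the acute-phase inducer Il6 from 5.64 ± 0.311 to 59.5 ± 6.58 (3.18 ± 0.081 log2, limma adjusted p = 1.7e-09). The 1 gene that fell was Clcf1, a cytokine of the IL-6 family (-0.17 ± 0.053 log2, limma adjusted p = 0.0299), whose call ended without control replicate 1 or 2 or co-culture replicate 2. Tslp, Ctf1 and Cxcl10 were not called, at -0.22, -0.13 and -0.04 log2. Il23a, the p19 subunit of IL-23, was 1 of 6 members below the filter: it stood at 58.8, 50.8 and 51.3 FPKM with IL-1β alone and at most at 1.19 in co-culture and 0.53 in control.

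NF-κB subunits, inhibitors and targets were also still raised: 23 of 27 rose and 0 fell, with a median of 0.85 log2. The mitochondrial superoxide dismutase gene Sod2 stood at 56.3, 58.4 and 59.7 FPKM in control and 418, 396 and 477 in co-culture (7.41-fold, 2.86 ± 0.059 log2, limma adjusted p = 4.46e-10). Nfkbia, which encodes the inhibitor that holds NF-κB in the cytoplasm, rose from 12.4 ± 0.439 to 53.2 ± 6.70, and Nfkbiz, a nuclear cofactor, from 6.54 ± 0.473 to 29.1 ± 0.329. The ribonuclease gene Zc3h12a, whose product degrades cytokine messages, rose from 7.51 ± 1.12 to 45.1 ± 2.48. The largest rises thus included feedback genes as well as targets. Rela, the main activating subunit, differed by only 0.15 ± 0.032 log2, and Tnip2, Cyld, Birc2 and Nfkbib were not called (0.00, 0.06, 0.07 and 0.17 log2).

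Of 19 tested prostaglandin and nitric oxide genes, 10 rose and 2 fell (63.2% called, median 0.44 log2). The secreted phospholipase gene Pla2g2a stood at 0.71, 0.42 and 1.06 FPKM in control and 50.8, 49.6 and 59.5 in co-culture (4.98 ± 0.12 log2, limma adjusted p = 1.49e-09). The groups were far apart in every library, and the fold of the means was 73.0-fold. Cyclooxygenase-2 (Ptgs2) rose 4.69-fold, from 27.9 ± 3.04 to 131 ± 6.73, and the terminal synthase gene Ptges 7.39-fold, from 39.6 ± 1.34 to 292 ± 23.7. The inducible nitric oxide synthase gene Nos2 stood at 0.05, 0.04 and 0.06 in control, 1.11, 1.21 and 2.29 in co-culture and 34.3, 33.8 and 35.9 with IL-1β alone. Its co-culture libraries were low in absolute terms but all above control (1.24 ± 0.14 log2, limma adjusted p = 9.74e-05). Nos2 passed the filter through the co-culture group alone. Ass1, which regenerates the arginine that nitric oxide synthase uses, rose from 1.46 ± 0.1 to 7.41 ± 0.491. Hpgd, the main prostaglandin-degrading enzyme, and cyclooxygenase-1 (Ptgs1) fell, by 0.47 ± 0.070 and 0.14 ± 0.034 log2.

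Complement and acute-phase genes rose in 14 of 16 cases and fell in 0 (median 1.17 log2) and 2 were not called, among them C2. The central complement component C3 stood at 0.38, 0.25 and 0.37 FPKM in control and 19.4, 19.0 and 24.4 in co-culture, with 64.5, 64.6 and 66.8 under IL-1β alone. Ptx3, a secreted pattern-recognition protein, rose 6.55-fold, from 13.7 ± 0.218 to 89.6 ± 7.38, and the lipopolysaccharide-binding protein gene Lbp 6.74-fold, from 3.54 ± 0.266 to 23.8 ± 1.10. Interferon and antigen-processing genes differed little: 8 of 19 rose and 1 (Irf7) fell (47.4% called). Their median was 0.18 log2, with no 2-fold change. The antigen-presenting light chain B2m rose 1.33-fold, from 198 ± 4.96 to 262 ± 3.49, while the interferon signal transducer gene Stat2 was not called (0.04 ± 0.049 log2). The count of 8 was 5 without control replicate 3 or co-culture replicate 2, and the call of Irf7 ended without control replicate 2 or co-culture replicate 1 or 3.

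Among 30 tested matrix-degrading enzymes, 14 rose and 4 fell (median 0.16 log2), and the 5 that rose at least 2-fold were the secreted metalloproteinase genes Mmp3, Mmp9, Mmp10, Mmp12 and Mmp13. The stromelysin gene Mmp3, whose product cleaves proteoglycans and activates collagenases, stood at 33.1, 39.0 and 35.1 FPKM in control and 1071, 989 and 1084 in co-culture (29.3-fold, 4.84 ± 0.061 log2, limma adjusted p = 4.94e-11). Its relative Mmp10 stood at 4.88, 5.04 and 4.34 in control and 136, 125 and 148 in co-culture (28.7-fold). The gelatinase gene Mmp9 stood at 0.82, 0.85 and 0.97 in control and 37.6, 35.4 and 42.0 in co-culture (43.6-fold). In all of these the co-culture libraries were at least an order of magnitude above control. The collagenase gene Mmp13, which cuts type II collagen, stood at 21.6, 22.6 and 20.04 in control, 81.0, 74.9 and 101 in co-culture and 481, 430.4 and 427 with IL-1β alone. Its residual rise was 3.99-fold (1.94 ± 0.096 log2, adjusted p = 2.1e-07). The aggrecanase Adamts5 rose 1.67-fold, from 6.65 ± 0.484 to 11.1 ± 1.18, while Adamts4, the other main aggrecanase, was not called (0.11 ± 0.082 log2). The 4 that fell were Mmp14, the membrane collagenase, Mmp16, Ctsk and the hyaluronan-degrading Cemip, at -0.28, -0.14, -0.21 and -0.51 log2. Under the other scalings 6 or 7 enzymes fell and 13 or 14 rose.

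Of 15 tested protease inhibitors, 7 rose and 3 fell (median 0.09 log2 as deposited and between 0.02 and 0.05 under the other scalings). Slpi, which encodes a secreted inhibitor of neutrophil elastase, had the largest rise among them, from 5.47, 5.07 and 7.34 FPKM to 112, 93.9 and 108 (17.5-fold). Serpine2, an inhibitor of thrombin and plasminogen activators, rose from 655 ± 6.84 to 1057 ± 34.7. Timp3, the matrix-bound inhibitor of metalloproteinases and aggrecanases, stood at 9.96, 9.29 and 10.3 in control, 12.1, 12.3 and 14.9 in co-culture and 44.1, 45.2 and 43.4 with IL-1β alone. It passed as higher (0.38 ± 0.071 log2, limma adjusted p = 0.00258). Timp1 rose by 0.16 ± 0.037 log2 and Timp2 fell by 0.14 ± 0.040 log2. Wfdc21, whose product has the same kind of WAP domain as Slpi, was listed at 0 in all 3 control libraries and stood at 29.2, 22.4 and 26.5 in co-culture, so no fold is given.

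**Figure D2:**
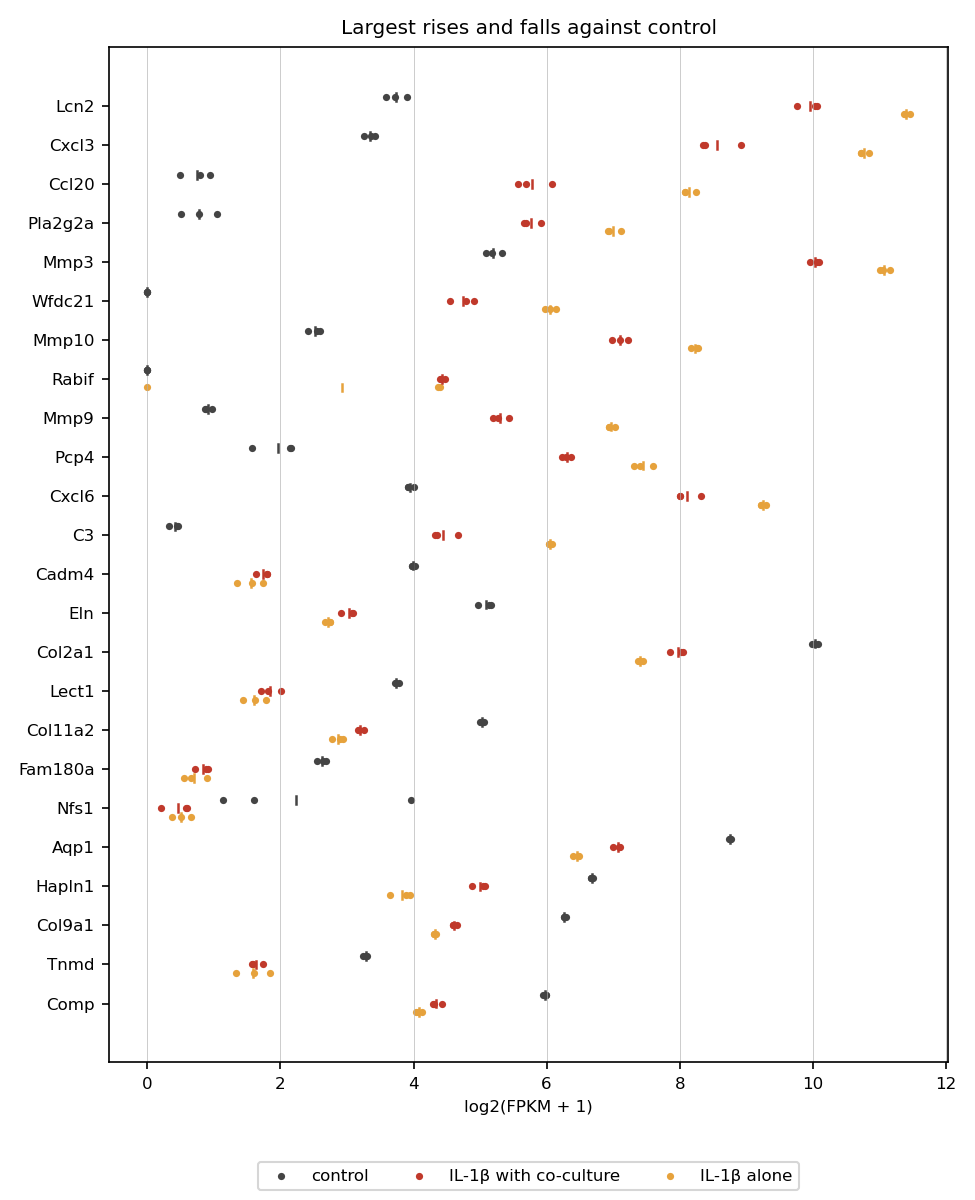
log2(FPKM + 1) of the 12 largest rises (top) and 12 largest falls (bottom) in each of the 9 libraries. Points are libraries, short vertical bars are group means, black is control, red is IL-1β with co-culture and orange is IL-1β alone. Co-culture points lie apart from control points in all 24 genes, which the choice of these genes required. In Rabif and Nfs1 single libraries stand far from others of the same group.

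Cartilage matrix genes stayed well below control. Of 39 tested cartilage genes 33 fell and 2 rose (89.7% called, median -0.82 log2), and 18 fell at least 2-fold. The rises were Prg4 and the chondroitin sulfotransferase gene Chst11 (0.21 ± 0.032 log2). Type II collagen, Col2a1, stood at 1041, 1011 and 1075 FPKM in control and 263, 258 and 229 in co-culture (4.17-fold lower, -2.06 ± 0.050 log2, limma adjusted p = 1.25e-09). All co-culture libraries lay far below control, and IL-1β alone gave 164, 168 and 173. Its partner collagens fell too: Col9a1 from 76.1 ± 0.734 to 23.5 ± 0.616, and Col11a2 from 31.5 ± 0.737 to 8.20 ± 0.330. The link protein gene Hapln1 stood at 103, 101 and 101 in control and 32.6, 32.1 and 28.4 in co-culture (3.28-fold lower), with 11.5, 13.8 and 14.4 under IL-1β alone. Aggrecan (Acan) stood at 290.2, 276 and 288 in control and 139, 148 and 134 in co-culture (2.03-fold lower, -1.02 ± 0.038 log2).

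Other structural genes of cartilage followed. Comp, which links collagen fibrils to other matrix proteins, fell 3.21-fold, from 61.9 ± 0.970 to 19.3 ± 1.10 FPKM. Lect1, the older symbol of chondromodulin, an inhibitor of vessel growth, fell from 12.3, 12.2 and 12.7 to 3.03, 2.51 and 2.28, and the related tendon gene Tnmd from 8.79, 8.87 and 8.50 to 2.00, 1.98 and 2.34. Both stayed at low levels in every co-culture library. The chondrocyte master regulator Sox9 stood at 6.44, 6.57 and 6.91 in control and 4.82, 4.60 and 4.13 in co-culture (-0.47 ± 0.075 log2, limma adjusted p = 0.000928). Of its partners, Sox6 fell by 0.33 ± 0.065 log2 and Sox5 was not called (0.14 ± 0.073). Prg4, which encodes the joint lubricant lubricin, went the other way, from 13.6, 13.9 and 13.6 to 125, 114 and 130.2 (9-fold).

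Among 11 tested hypertrophy and mineralization genes 4 rose and 5 fell. Mgp, which encodes an inhibitor of matrix calcification, rose 2.91-fold, from 362, 396 and 381 FPKM to 1181, 984 and 1148. Osteopontin (Spp1) rose from 1424 ± 25.7 to 2574 ± 88.4. The pyrophosphate exporter gene Ankh, whose product restrains mineral formation, fell from 40.2 ± 0.640 to 26.3 ± 1.52, and the parathyroid hormone receptor gene Pth1r fell by 0.74 ± 0.075 log2. Hypertrophy's marker collagen Col10a1 was below the filter, at most 0.1 FPKM in any library.

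Collagens of connective tissue were reduced together with those of cartilage. Of 34 tested fibroblastic matrix genes 27 fell and 4 rose (91.2% called, median -0.54 log2), the rises being Col4a1, Fn1, Fap and Col8a1, of at most 0.44 log2. Type I collagen, Col1a1, stood at 1968, 1921 and 2032 FPKM in control and 1003, 971 and 928 in co-culture (2.04-fold lower, limma adjusted p = 2.34e-08). Col3a1 fell 2.19-fold, Col6a1 1.93-fold and Col6a2 1.88-fold, and the groups did not overlap in any of these. Cthrc1, a secreted collagen-associated protein, fell 2.82-fold, from 108 ± 7.18 to 38.5 ± 1.11. Genes that modify and fold collagen changed by less: 13 of 25 fell and 4 rose, and none reached 2-fold. The collagen chaperone Serpinh1 had the largest fall of them, from 1965 ± 39.3 to 1423 ± 59.8, and the count of 4 rises was 2 without control replicate 3. That of 4 fibroblastic rises was 2 without co-culture replicate 1, and under the other scalings it was 1 or 2 and that of the collagen-modifying genes 2.

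Elastic fibre genes split. Elastin (Eln) had one of the largest falls, from 30.3, 34.9 and 34.2 FPKM to 7.46, 7.54 and 6.53 (4.61-fold lower, -2.06 ± 0.067 log2, limma adjusted p = 9.54e-09). The cross-linking enzyme genes Loxl3 and Loxl4 fell 2.16-fold and 2.33-fold, while Lox, the founding member of that family, rose by 0.48 ± 0.028 log2. Emilin1, an elastic fibre glycoprotein, rose 2.27-fold, from 56.6 ± 0.603 to 128 ± 3.39. In all, 9 of 21 fell and 5 rose. Small leucine-rich proteoglycans split in the same manner, with 5 of 8 lower and 2 higher. Decorin (Dcn), which binds collagen fibrils and TGF-β, stood at 34.5, 31.4 and 31.5 in control and 195, 183 and 202 in co-culture (5.97-fold), and lumican (Lum) at 90.0, 84.0 and 89.5 in control and 347, 330.0 and 400.1 in co-culture (4.09-fold). Asporin (Aspn), their close relative, fell 2.83-fold, from 14.6 ± 0.710 to 5.17 ± 0.571, and biglycan (Bgn) fell by 0.23 ± 0.029 log2.

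Contractile and adhesion genes were lower in 23 of 35 cases and higher in 4 (median -0.21 log2). The rises were Pxn, Synpo, Palld and Des, of which Des is also one of the skeletal muscle markers given below. Smooth muscle actin (Acta2), the usual marker of the contractile state, stood at 662, 674 and 660.5 FPKM in control and 300.2, 296 and 256 in co-culture (2.34-fold lower, limma adjusted p = 7.14e-08). The actin nucleator gene Lmod1 fell 4.52-fold, from 6.46 ± 0.145 to 1.43 ± 0.265, and the enteric actin gene Actg2 3.03-fold. The water channel gene Aqp1, outside these lists, fell from 428, 433 and 429 to 135, 137 and 127 (-1.69 ± 0.035 log2, adjusted p = 4.46e-10). Cadm4, an adhesion molecule, fell from 14.7, 15.2 and 14.8 to 2.49, 2.47 and 2.09 (6.34-fold), and IL-1β alone gave 1.97, 2.34 and 1.54.

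**Figure D3:**
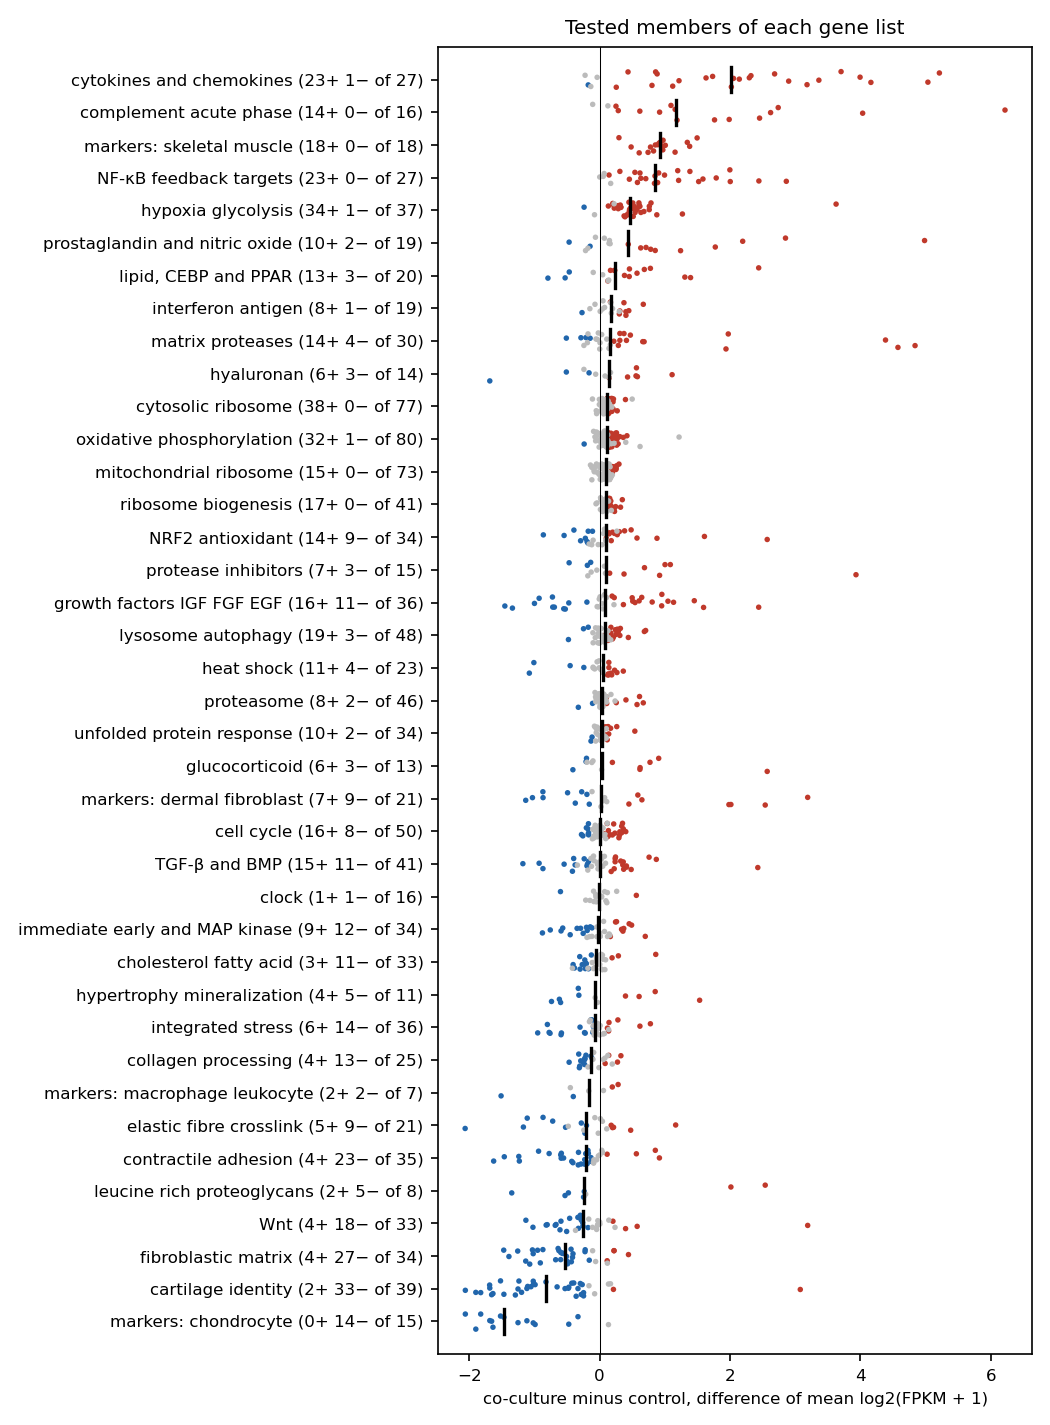
Difference of mean log2(FPKM + 1), co-culture minus control, for every tested member of the lists shown, each of which has at least 5 tested members. Red points rose, blue fell, grey were not called, black bars are list medians, and the brackets give the counts of rises (+) and falls (−). Cytokines and chemokines have the highest median, 2.02, and chondrocyte markers the lowest, -1.47.

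Signalling genes diverged within each family. Of 36 tested growth factor genes 16 rose and 11 fell. The insulin-like growth factor gene Igf2 fell 1.90-fold, from 508, 515 and 519.7 FPKM to 276, 272 and 263, and its binding protein Igfbp3 2.58-fold, from 66.7 ± 2.98 to 25.8 ± 0.547. Fgfr3, the receptor that restrains growth of cartilage, fell by 1.45 ± 0.065 log2. Angptl4, a secreted inhibitor of lipoprotein lipase, rose 5.54-fold, from 41.6, 40.2 and 38.8 to 218, 213 and 238, and the vessel-stabilizing ligand gene Angpt1 3.57-fold. The repair factor Hgf rose by 1.45 ± 0.068 log2.

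Of 41 TGF-β and BMP genes 15 rose and 11 fell, with a median of 0.00 log2 as deposited and between -0.06 and -0.04 under the other scalings. The ligand gene Tgfb3 fell 1.92-fold, from 91.9, 91.4 and 93.0 FPKM to 48.8, 49.6 and 45.7, and Tgfbi, a matrix protein induced by TGF-β, 1.83-fold. Bmp6 rose from 1.02, 0.8 and 0.75 to 7.69, 8.80 and 10.6, and the BMP antagonist gene Grem1 from 167 ± 3.69 to 307 ± 13.0. A ligand and an antagonist of the BMP pathway were thus both higher. Wnt genes were lower in 18 of 33 cases and higher in 4 (median -0.26 log2). The count of 18 was 13 or 14 when any 1 library was left out, and 18 to 21 under the other scalings. Falls included Nkd2, Notum, Wif1 and Lgr5, feedback genes, antagonists or receptors of the pathway, at -1.13, -1.02, -0.82 and -0.80 log2. Sfrp2, a secreted frizzled-related protein, rose from 6.29, 7.29 and 4.68 to 61.1, 56.6 and 72.3 (10.4-fold, limma adjusted p = 3.92e-08), and the ligand gene Wnt5a 1.52-fold.

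Genes of hypoxia and glycolysis were raised as a group, by small steps. Of 37 tested, 34 rose and 1 (P4ha1) fell (94.6% called, median 0.46 log2, and 33 or 34 rose under each scaling). The oxygen sensor Egln3 stood apart, at 1.94, 2.15 and 2.36 FPKM in control and 35.1, 34.8 and 44.5 in co-culture (17.7-fold), with 118, 117 and 119 under IL-1β alone. The mitophagy receptor gene Bnip3 rose 1.49-fold, from 188 ± 4.36 to 281 ± 4.03, and the lactate exporter gene Slc16a3 1.40-fold. Every glycolytic step in the list from Hk1 to Ldha rose, by 0.14 log2 for Hk1, 0.55 for Tpi1 and 0.29 for Ldha. Lipid-handling genes rose in 13 of 20 cases and fell in 3. The lipid droplet protein gene Plin2 rose from 81.0 ± 1.94 to 131 ± 4.07 and the transcription factor gene Cebpd from 50.5 ± 3.27 to 135 ± 8.21, while Pparg, the regulator of fat cells, fell by 0.79 ± 0.089 log2.

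Among 34 NRF2 and antioxidant genes 14 rose and 9 fell, and different members parted. The metallothionein gene Mt2A stood at 141, 132 and 161 FPKM in control and 844, 779 and 973 in co-culture (5.98-fold), and Mt1 rose 3.08-fold. Metallothioneins form a family of near-identical copies, so their separate levels are uncertain. The quinone reductase gene Nqo1 fell from 418, 417 and 419 to 292, 279.8 and 288 (-0.54 ± 0.025 log2, limma adjusted p = 1.03e-07), below IL-1β alone at 350.2, 343 and 341 as well. The extracellular glutathione peroxidase gene Gpx3 fell 1.84-fold. Glutathione synthesis genes Gclc and Gclm fell by 0.18 ± 0.040 and 0.19 ± 0.035 log2.

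Of 36 integrated stress genes 14 fell and 6 rose as deposited, and 17 to 19 and 3 to 4 under the other scalings, although the count of falls was 8 without control replicate 2 or co-culture replicate 3. Trib3, a pseudokinase induced by this response, fell 1.99-fold, from 25.8, 27.6 and 28.2 FPKM to 14.7, 13.6 and 12.6, and the transcription factor gene Atf5 1.72-fold, from 124 ± 1.90 to 72.3 ± 3.26. Among 23 heat-shock genes 11 rose and 4 fell as deposited (65.2% called), and 5 to 9 and 4 to 6 under the other scalings. The small chaperones Cryab and Hspb7 fell 2.16-fold and 2.10-fold, while Hsph1 was among the rises, at 1.29-fold. Immediate-early and MAP kinase feedback genes split 9 higher and 12 lower of 34, with Fos lower, at 8.40, 10.6 and 8.28 in control and 4.75, 4.06 and 4.64 in co-culture, and Junb higher, from 100.0 ± 2.73 to 141 ± 2.76.

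Some genes in co-culture lay outside both other groups. In the values as deposited, all 3 co-culture libraries were above all 6 others in 588 tested genes (5.11%) and below them in 207 (1.80%). This is a description with no test of its own. It was not repeated under the other scalings, on which the split between rises and falls depended. Of the 588 and 207 genes, 420 and 136 had passed the test against control, and the genes named for this pattern were chosen from those. Below both, the stress cytokine gene Gdf15 stood at 0.73, 1.49 and 1.22 FPKM in co-culture, 1.96, 2.76 and 3.16 in control and 11.1, 9.44 and 9.15 with IL-1β alone (against control -0.76 ± 0.15 log2, limma adjusted p = 0.00387). The autophagy receptor and NRF2 target Sqstm1 stood at 119, 117 and 117 in co-culture, 161, 167 and 165 in control and 173, 165 and 159 with IL-1β alone (adjusted p against control = 2.57e-06). The ubiquitin ligase gene Mdm2 stood at 48.3, 51.9 and 54.1 in co-culture, 73.9, 70.9 and 70.6 in control and 81.8, 81.2 and 80.2 with IL-1β alone. Srxn1, the sulfiredoxin gene and another NRF2 target, stood at 18.3, 19.3 and 19.5 in co-culture, 26.4, 25.5 and 24.1 in control and 35.1, 34.0 and 35.5 with IL-1β alone. In each of these genes the co-culture libraries were the 3 lowest of the 9, as the choice required. Rassf4, a Ras-association domain gene, was also lowest in co-culture, at 5.78, 4.89 and 5.56 against 10.1, 9.88 and 10.1 in control, as were Hr and Armc7 (-0.43 and -0.34 log2). The call of Armc7 ended when any 1 library other than control replicate 3 was left out.

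Above both, the glucose transporter gene Slc2a3 stood at 5.17, 5.59 and 6.04 FPKM in co-culture, 3.40, 2.93 and 3.02 in control and 3.35, 4.03 and 1.97 with IL-1β alone. Hmgn1, which encodes a nucleosome-binding protein, stood at 231, 237 and 224 in co-culture, 164, 188 and 188 in control and 164, 186 and 168 with IL-1β alone. The laminin-binding integrin gene Itga3 stood at 23.5, 21.8 and 19.6 in co-culture, 16.8, 17.0 and 16.8 in control and 15.6, 16.8 and 16.0 with IL-1β alone. In all of these the co-culture libraries were the 3 highest of the 9, as the choice required. Their differences from control were 0.68 ± 0.16, 0.36 ± 0.060 and 0.34 ± 0.059 log2, and that of the small heat-shock gene Hspb2 was 0.69 ± 0.15. Having passed the test against control was a condition of the choice. The rule for such genes also took Rabif, a chaperone of Rab GTPases, listed at 0 in all control libraries and in 1 of the 3 with IL-1β alone, and at 20.2, 20.03 and 21.2 in co-culture. Since 23 tested genes, Polr2h of RNA polymerase among them, combined a 0 with 5 FPKM or more within the control or the co-culture group, a 0 can be a failed estimate and no fold is given for Rabif.

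**Figure D4:**
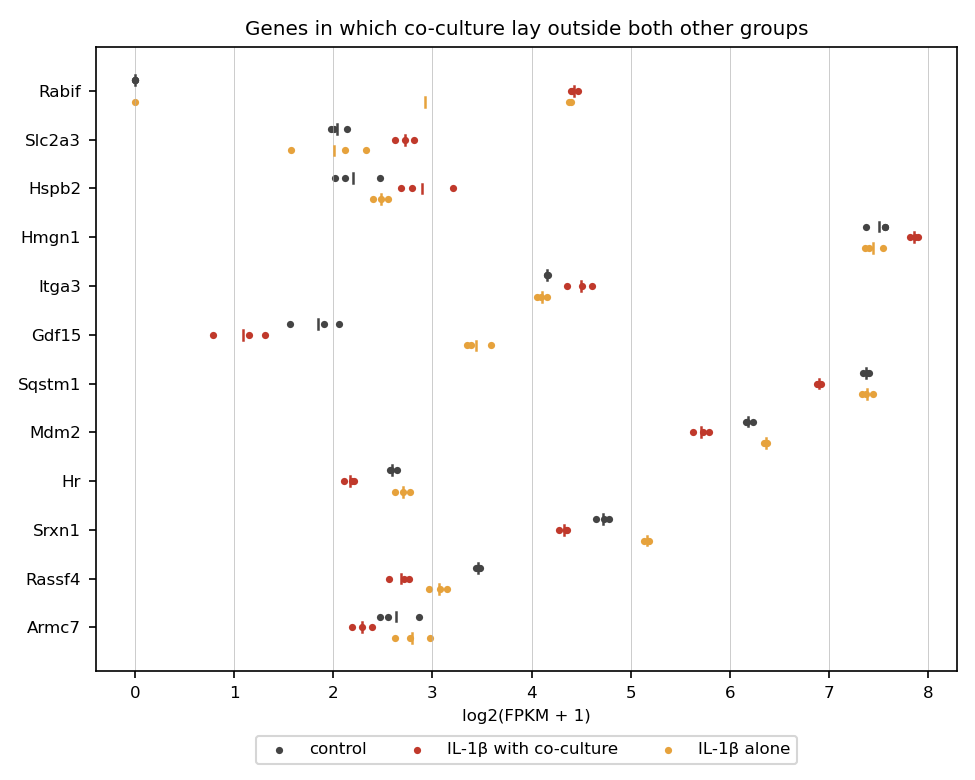
log2(FPKM + 1) in the 9 libraries of the named genes in which the 3 co-culture libraries lay all above (top 5) or all below (bottom 7) the 6 others. Points are libraries and short bars are group means. In Gdf15, IL-1β alone lies to the right of control and co-culture to the left of it.

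Other genes stood far from control with IL-1β alone and within 0.5 log2 of it in co-culture. They were chosen for the IL-1β value among the 9662 genes whose interval against control stayed within 0.5 log2, so the contrast with IL-1β alone is a description. The aldo-keto reductase gene Akr1b8 stood at 207, 216 and 228 FPKM in control, 262, 266 and 276 in co-culture and 825, 741 and 823 with IL-1β alone. Its interval against control was 0.20 to 0.41 log2. Heme oxygenase (Hmox1) stood at 135, 141 and 149 in control, 114, 120.2 and 113 in co-culture and 378, 348 and 353 with IL-1β alone, and its co-culture libraries were all below control (-0.29 ± 0.044 log2, limma adjusted p = 0.000694). The tissue plasminogen activator gene Plat stood at 31.3, 32.2 and 30.3 in control, 39.6, 35.9 and 39.8 in co-culture and 79.6, 74.8 and 78.1 with IL-1β alone. Pir (0.23 to 0.47 log2) and Ddit4l (-0.47 to -0.07) were also among those higher with IL-1β alone. The call of Ddit4l, as lower than control, ended without control replicate 3 or any co-culture replicate.

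Among genes lower with IL-1β alone, vimentin (Vim), an intermediate filament of mesenchymal cells, stood at 3945, 3932 and 3908 FPKM in control, 3069, 2939.5 and 2839.9 in co-culture and 2154, 2152 and 2230.0 with IL-1β alone. Txnip, which restrains glucose uptake and thioredoxin, stood at 82.5, 84.8 and 82.5 in control, 67.4, 66.5 and 63.9 in co-culture and 44.8, 43.1 and 44.0 with IL-1β alone. In both, the co-culture libraries lay between the other groups, and differed from control (-0.41 ± 0.032 and -0.33 ± 0.031 log2, limma adjusted p = 6.15e-06 and 2.08e-05). Srpx2, Lfng and Nrn1 had intervals of -0.49 to -0.34, -0.49 to -0.30 and -0.34 to -0.17 log2. The kinase gene Sbk1 was not called: it stood at 1.33, 1.03 and 1.16 in control and 1.27, 0.95 and 0.93 in co-culture (interval -0.30 to 0.12), and was listed at 0, 0 and 0.01 with IL-1β alone.

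**Figure D5:**
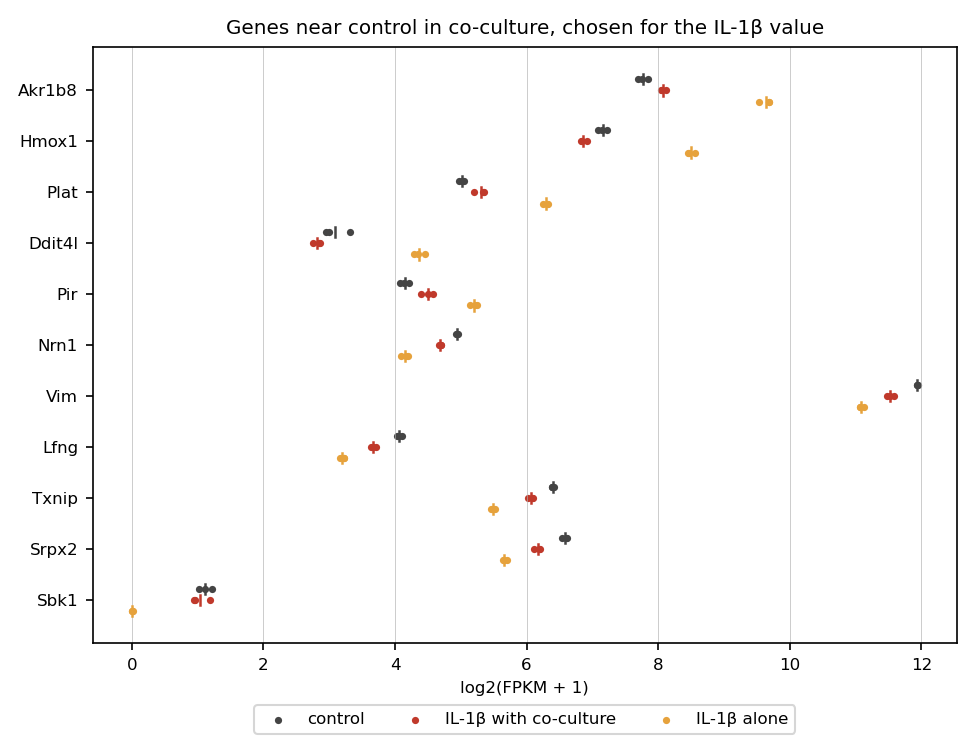
log2(FPKM + 1) in the 9 libraries of 5 of the 6 genes highest (top) and the 6 lowest (bottom) with IL-1β alone among those held within 0.5 log2 of control in co-culture. Points are libraries and short bars are group means. The co-culture means lie within 0.5 log2 of the control means, as the choice required. In Vim, Lfng and Srpx2 they sit about midway between control and IL-1β alone.

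Housekeeping groups showed small differences whose direction in part followed the scaling. Over all tested genes the share called was 40.5% at 20 to 100 FPKM and 51.7% at 100 FPKM or more. The 34.1% of all tested genes, set beside the lists below, is not matched for their level. All 50 cell-cycle genes tested had intervals within 0.5 log2 of 0. As deposited 16 rose and 8 fell (48% called, beside 34.1% of all tested genes), against 12 and 14 with a common library sum. The rises included the replication licensing genes Mcm2 to Mcm7, Cdc6 and Cdt1, and the falls the mitotic genes Kif23, Cdc20 and Plk1. The replication clamp gene Pcna rose from 245 ± 3.88 to 303 ± 4.06 FPKM and the helicase subunit Mcm6 from 104 ± 1.79 to 128 ± 1.94. Cytosolic ribosomal protein genes rose in 38 of 77 cases and fell in 0 (49.4% called, beside 51.7% of all tested genes at 100 FPKM or more). Under the other scalings 12 to 15 rose and 2 to 5 fell. The 38 became 19 to 22 without control replicate 1 or 3 or any co-culture replicate, and 31 without control replicate 2. Rpl3 rose from 1624 ± 17.9 to 1961 ± 54.8. Ribosome biogenesis genes rose in 17 of 41 cases and fell in 0 (41.5% called), led by Tsr1 and Nolc1 (0.32 ± 0.035 and 0.20 ± 0.026 log2). Under the other scalings 8 to 12 rose and 0 fell.

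Oxidative phosphorylation genes rose in 32 of 80 cases and fell in 1. Of them 41.2% were called, beside 34.1% of all tested genes and 51.7% of those at 100 FPKM or more. The median of the list was 0.11 log2. Under the other scalings 14 to 16 rose and 1 to 2 fell, and the 32 rises were 23 to 30 when 1 library was left out. The 1 fall as deposited, of Uqcr10, ended without control replicate 2 or 3 or co-culture replicate 2 or 3. Mitochondrial ribosomal genes rose in 15 of 73 cases as deposited (20.5%, beside 21.7% of all tested genes) and in 3 to 5 under the other scalings, where 2 or 3 fell. The count of 15 was 7 to 9 without control replicate 1 or 3 or co-culture replicate 2. Proteasome genes rose in 8 of 46 cases and fell in 2 as deposited (21.7% called, beside 34.1% of all tested genes), and in 4 and 2 to 5 under the other scalings. The first count was 4 or 5 without control replicate 1 or 3 or co-culture replicate 2 or 3. The activator subunits Psme1 and Psme2 rose 1.5-fold and 1.55-fold, from 82.6 to 124 and 23.2 to 36.1 FPKM. Lysosome and autophagy genes rose in 19 of 48 cases and fell in 3 as deposited (45.8% called). Under the other scalings 12 or 13 rose and 3 to 7 fell. Without co-culture replicate 1, 5 fell. Unfolded protein response genes rose in 10 of 34 cases and fell in 2 as deposited (35.3% called). This stands beside 34.1% of all tested genes, 40.5% of those at 20 to 100 FPKM and 51.7% of those at 100 FPKM or more. Under the other scalings 2 to 5 unfolded protein response genes rose and 4 to 7 fell. Those 10 rises were 6 without control replicate 2 or 3 or co-culture replicate 3, and the falls were 0 or 1 without any 1 library. Cholesterol and fatty acid genes rose in 3 of 33 cases and fell in 11 (42.4% called), the falls including Cyp51, an enzyme of sterol synthesis (-0.30 ± 0.032 log2). The count of 11 was 7 without co-culture replicate 2. Clock genes had 1 rise, Bhlhe40, and 1 fall, Bhlhe41, of 16 (12.5% called), and 1 and 2 or 3 under the other scalings. The rises were 2 without control replicate 1, and the falls 2 without control replicate 2 or co-culture replicate 1. Glucocorticoid-response genes had 6 rises and 3 falls of 13, led by Mt2A, and hyaluronan genes 6 and 3 of 14, with the synthase gene Has2 higher (23 to 34.5 FPKM).

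Markers of other cell types were read in the same libraries, and their part in the results above was not tested. Skeletal muscle markers rose in 18 of 18 tested cases, with a median of 0.92 log2 (0.88 for IL-1β alone against control), and their FPKM summed to between 288.6 and 318.4 in control and between 604.3 and 668.9 in co-culture. The skeletal actin gene Acta1 stood at 30.8, 30.7 and 26.6 in control, 80.7, 74.8 and 73.0 in co-culture and 89.2, 90.8 and 85.4 with IL-1β alone. The myosin light chain gene Mylpf stood at 78.4, 80.5 and 81.5 in control, 191, 182 and 168 in co-culture and 184, 162 and 169.6 with IL-1β alone, and the acetylcholine receptor gene Chrna1 rose 3.33-fold. Of the satellite cell markers, Pax7 and Myf5 were at most 0.11 and 0.26 FPKM in any of the 6 libraries.

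Dermal fibroblast markers, those of the cells in the upper chamber, rose in 7 of 21 tested cases and fell in 9. Their summed FPKM was between 4557 and 4743 in control and between 3158 and 3261 in co-culture. Of these markers Col1a1 averaged 1973 in control and 967 in co-culture, and Col3a1 1312 and 599. The rises were Dcn, Lum, Sfrp2, Mgst1, Twist2, Prrx1 and En1, of which the first 3 were higher still with IL-1β alone. The 5 below the filter were Dpp4, Pi16, Cd34, Entpd1 and Clec3b, each at most 1.31 FPKM in any of the 6 libraries. Macrophage and leukocyte markers rose in 2 (1 with a common library sum) and fell in 2 of 7 cases and summed to between 30.0 and 33.2 in control and between 25.9 and 27.0 in co-culture. The pan-leukocyte gene Ptprc was at most 0.1. The rises were Cd68 and Cd14 (0.29 and 0.20 log2) and the falls Lyz2 and Adgre1 (-1.51 and -0.40 log2). The lysozyme gene Lyz2 fell from 8.31, 9.35 and 9.95 to 2.77, 2.99 and 2.04.

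Endothelial markers summed to between 14.9 and 16.0 FPKM in control and between 10.8 and 12.3 in co-culture, with Erg and Egfl7 lower of 3 tested and the defining genes Pecam1 and Cdh5 at most 0.33. Keratinocyte markers summed to between 9.52 and 11.4 and between 12.2 and 14.1, with Krt17 higher of 2 tested and Krt5 and Krt14 at most 0.12. Sp7 and Ctsk were lower among 3 tested osteoblast and osteoclast markers, and S100b and Ncam1 among 4 Schwann and neural ones. The call of Ncam1 ended without control replicate 2 or 3 or co-culture replicate 3. Fabp4, a fatty acid carrier, was the only tested gene of the erythroid and adipocyte markers, at 20.2, 16.7 and 13.2 in control, 45.3, 33.6 and 49.8 in co-culture and 185, 157 and 167 with IL-1β alone. The fat cell genes Adipoq, Plin1 and Cidec were below the filter.

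Among the largest changes outside the lists, the calmodulin-binding protein gene Pcp4 rose from 3.46, 3.43 and 1.97 FPKM to 77.6, 74.1 and 81.8 (26.4-fold, limma adjusted p = 9.54e-09). The calcium buffer gene Pvalb was listed at 0 in all control libraries and stood at 10.8, 9.93 and 10.2 in co-culture and 48.2, 33.9 and 35.4 with IL-1β alone. Fam180a fell from 5.23, 4.83 and 5.40 to 0.89, 0.64 and 0.84. The cysteine desulfurase gene Nfs1 was also among the 12 largest falls, at 2.05, 14.6 and 1.2 in control and 0.16, 0.5 and 0.51 in co-culture, but 1 control library was far above the other two. Its call (adjusted p = 0.0375) ended when any 1 co-culture library was left out and with only the 6 libraries compared in the fit.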

How the data were processed

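Polyadenylated RNA of 9 rat chondrocyte libraries was sequenced after oligo(dT) enrichment, per the labels' protocols. The authors deposited FPKM per gene, named as such in the table's header. No source used here gives the aligner or counter. GRCm38, a mouse build, is named in the submitters' processing notes, although 16396 of the 17588 gene identifiers (93.2%) are in the RefSeq table of rat GRCr8, so no gene coordinates were taken from the table. The depth is unknown, and no counts were recovered.

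From these values, log2(FPKM + 1) was fitted with limma 3.58.1 in R 4.3.3 (moderated two-sided test with trend). All 9 libraries entered 3 group means, genes needed 1 FPKM in at least 3 of the 6 libraries compared, and p-values were adjusted by Benjamini-Hochberg over 11506 genes. The fit was also run on simulated data with independent normal errors, which cannot show how well the p-values hold for these libraries. Figures were drawn with matplotlib 3.10.9.

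Named genes were the 12 that rose most and the 12 that fell most (called, libraries not overlapping, with a proper symbol and a group mean of 5 FPKM or more), from each list the 4 members of smallest p, a fixed set, genes outside both other groups, genes near control, and genes at 0 in 1 group. Further members of lists were named after their values were seen. The genes and lists were chosen with earlier results of these data known. Replicate numbers were not used as pairs in the main fit. Deviations of same-numbered control and co-culture libraries correlated at 0.015, -0.098 and -0.015, and those of differently numbered ones between -0.076 and 0.095. With so few libraries per group, these values cannot show whether the libraries were paired. Alternatives were another pseudocount, filter or scaling, no trend, the 6 libraries alone, a replicate block and leaving out each library. Some genes and 1 list that these rules took are not reported here.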

Additional observations from a re-analysis of the deposited data

How the results depend on the processing

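The count of 3924 called genes lay between 3259 and 3981 under the other pseudocounts, filters, scalings, trend and library choices, and between 3217 and 3640 when 1 library was left out. Rises, 2495 as deposited, numbered 1491 with a common FPKM sum and 1648 after quantile normalization. At least 2-fold falls rose in number from 77 to 126 with a pseudocount of 0.1, and genes within 0.5 log2 of control from 9662 to 14766 with no filter, where more genes are tested. With the replicate number as a block, 3639 genes were called, of which 3527 were among the 3924. Nothing beyond the number is known to join same-numbered libraries. Of 198 called genes among the 206 chosen by the fixed rule, 187 kept their direction and call in every alternative that tested them; 179 were tested in all 17, of which 170 kept both, and no value changed sign while called. Of 1462 counts of list members under these alternatives, 136 moved by more than 1.5 times. Depth could not be assessed from FPKM.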
